A study of Mus musculus with 2 samples.

Results

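The genes described here are 7 of the 43346 mouse genes measured: the receptor genes Ntrk2, Ntrk3, Ngfr and Sort1, and the ligand genes Bdnf, Ntf3 and Ntf5. They were chosen by name as neurotrophins and their receptors, and each symbol matched 1 gene. The RNA came from the neural tube of healthy B6NCrl mouse embryos at day 13.5, with males and females pooled. There was 1 group with 2 libraries, biological replicates 2 and 1, each made as total RNA-seq from 10 ng of RNA with spike-in RNA added. No genotype, treatment or second age was compared, so the questions were how high each gene stood, which of its transcripts were present, and how far the libraries differed.

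Neurotrophins are secreted growth factors that keep neurons alive and guide the growth of their axons and synapses. Each binds a Trk receptor tyrosine kinase, TrkB (gene Ntrk2) for BDNF and neurotrophin-4 and TrkC (gene Ntrk3) for neurotrophin-3, and the kinase then recruits adaptor proteins to the inner side of the membrane. The p75 receptor (gene Ngfr) has no kinase. It binds mature neurotrophins with lower affinity and, together with sortilin (gene Sort1), it binds the uncleaved pro-forms. Sensory neurons, motor neurons and glia of the embryonic spinal region are known to use these receptors. Ntrk2 and Ntrk3 also give rise to transcripts that end before the kinase, whose proteins bind ligand but cannot signal through it.

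The libraries held 22311849 expected counts in replicate 2 and 34125110 in replicate 1. Expected counts are estimated reads, and TPM, the usual measure of transcript abundance, gives those reads per transcript length, scaled to the same total in every library. Spike-ins took 12.6% of TPM in replicate 2 and 13.0% in replicate 1. Markers of the labelled tissue were present, with the neuronal gene Tubb3 at 1174.76 TPM in replicate 2 and 1245.42 TPM in replicate 1 and the progenitor gene Sox2 at 14.35 and 14.80 TPM. Markers of neighbouring tissues were present too: 10 of 10 sensory ganglia markers, 6 of 6 Schwann and satellite glia markers and 5 of 5 skeletal muscle markers reached 1 TPM in both libraries. Of the ganglia markers, Pou4f1, Prrxl1 and Tlx3 are also known from dorsal spinal neurons. In bulk RNA of this kind, fewer cells of a type and less RNA per cell cannot be told apart, and the level of a member in any one cell type was not measured.

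Ntrk2 and Ntrk3 each had a kinase-coding and a truncated transcript in both libraries. The coding bases where those transcripts part are shown here because the isoform results rest on them. They were read from the GENCODE M21 transcripts on GRCm38, 5′ to 3′ on the coding strand. Lower case marks the last 30 coding bases that the forms share, and capitals mark bases of the named form, which are the first 60 for a full-length form and the whole coding end with its stop codon for a truncated form. The capitals lie at chr13:58985802-58985861 (+) for Ntrk2 full-length, chr13:58932023-58932060 (+) for Ntrk2 truncated, chr7:78260355-78260414 (−) for Ntrk3 full-length and, over more than 1 exon, chr7:78302629-78304426 (−) for Ntrk3 truncated.
Ntrk2 full-length: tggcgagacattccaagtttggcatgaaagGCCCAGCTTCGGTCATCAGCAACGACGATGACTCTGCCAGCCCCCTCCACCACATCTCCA
Ntrk2 truncated: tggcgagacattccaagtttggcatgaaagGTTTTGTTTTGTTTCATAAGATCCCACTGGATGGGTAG
Ntrk3 full-length: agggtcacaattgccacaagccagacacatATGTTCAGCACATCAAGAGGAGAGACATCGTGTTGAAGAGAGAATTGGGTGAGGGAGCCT
Ntrk3 truncated: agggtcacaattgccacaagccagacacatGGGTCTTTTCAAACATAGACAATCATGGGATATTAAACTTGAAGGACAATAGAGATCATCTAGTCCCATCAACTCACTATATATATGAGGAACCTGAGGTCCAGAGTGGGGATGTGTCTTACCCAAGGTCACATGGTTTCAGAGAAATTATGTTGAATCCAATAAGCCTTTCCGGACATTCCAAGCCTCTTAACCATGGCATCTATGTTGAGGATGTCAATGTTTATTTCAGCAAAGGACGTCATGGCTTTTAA
The Ntrk2 forms shared 1393 coding bases, after which the full-length form went on for 1073 bases and the truncated form for 38. The Ntrk3 forms shared 1585 coding bases, after which the full-length form without an insert went on for 893 bases and the truncated form for 254.

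**Figure D1:**
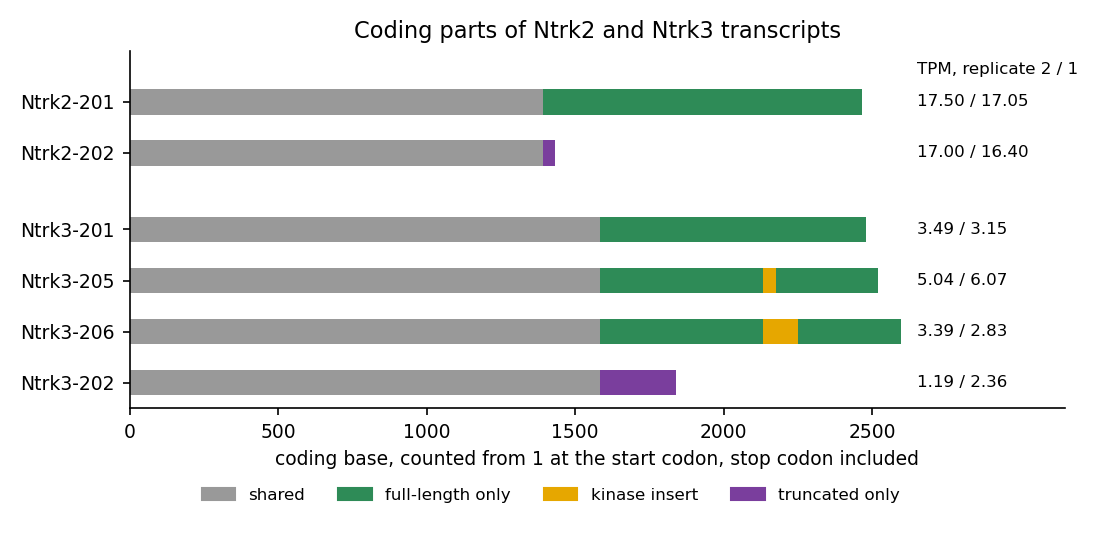
Coding parts of the Ntrk2 and Ntrk3 transcripts, one bar per transcript, with the coding base from the start codon on the x axis and the TPM in replicate 2 and replicate 1 printed at the right. Grey marks bases shared by the forms of a gene, green the full-length end, yellow the kinase inserts of 42 and 117 bases and purple the truncated ends of 38 and 254 bases.

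Across the 7 genes, the receptor genes stood above the ligand genes. Summed TPM of the 4 receptor genes was 143 in replicate 2 and 157 in replicate 1, and summed TPM of the 3 ligand genes was 9.45 in replicate 2 and 8.30 in replicate 1. The receptor sum was 15.1 times the ligand sum in replicate 2 and 19.0 times in replicate 1 (mean 17.0 ± 2.74, SD, n = 2). By mean TPM the order was Ngfr, Ntrk2, Sort1, Ntrk3, Ntf3, Bdnf and Ntf5, the same in replicate 2 and in replicate 1. For all 6 pairs of neighbours in that order the libraries did not overlap. The closest pair was Sort1 and Ntrk3, where the lower Sort1 library had 16.9 TPM and the higher Ntrk3 library 16.5 TPM, and the deposited TPM intervals of these genes overlapped. Taking 1 TPM in each library as the limit of detection, 6 of the 7 genes were detected, beside 61.8% of all protein-coding genes. The 7 genes were chosen with earlier results of these data known, so this comparison describes these genes only. The median protein-coding gene had 4.96 TPM, a level that all 4 receptor genes and Ntf3 passed in both libraries and that Bdnf and Ntf5 did not reach.

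**Figure D2:**
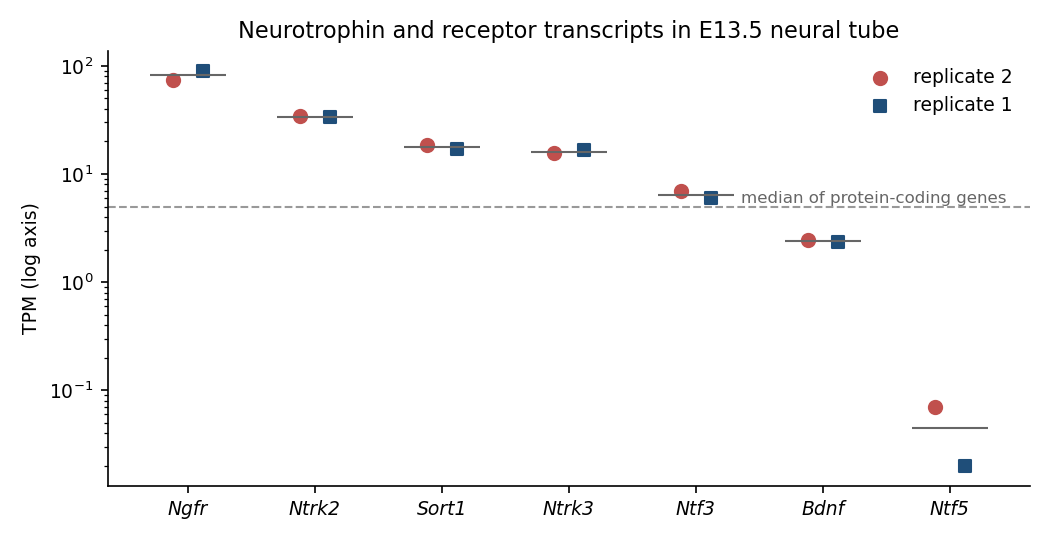
TPM on a log axis for each of the 7 genes, with circles for replicate 2, squares for replicate 1, a solid line at the mean and a dashed line at the median protein-coding gene, 4.96 TPM. The 4 receptor genes lie at 15.50 TPM or more in both libraries, Ntf3 just above the dashed line, Bdnf below it and Ntf5 at 0.07 TPM or less.

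Ngfr, the p75 receptor gene (ENSMUSG00000000120.6, chr11:95568818-95587735, − strand), had the highest level of the 7. It had 73.90 TPM from 3545 counts in replicate 2 and 90.56 TPM from 6854 counts in replicate 1 (mean 82.2 ± 11.8, SD, n = 2). All of these reads were assigned to its 1 annotated transcript, Ngfr-201, of 3446 bases and 6 exons. Its level stood at the 90th percentile of protein-coding genes in replicate 2 and the 92.3rd in replicate 1. Ngfr exceeded Ntrk2 by 2.14-fold in replicate 2 and 2.71-fold in replicate 1, and it exceeded Ntrk3 by 4.77-fold in replicate 2 and 5.49-fold in replicate 1, all as ratios of TPM.

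Ntrk2, the TrkB gene (ENSMUSG00000055254.10, chr13:58806569-59133970, + strand), was nearly level between the libraries. It had 34.49 TPM from 3798 counts in replicate 2 and 33.45 TPM from 5814 counts in replicate 1 (mean 34 ± 0.735). Its coding transcripts divided the gene almost evenly. The full-length transcript, Ntrk2-201, took 50.72% of the gene's TPM in replicate 2 and 50.97% in replicate 1, at 17.50 TPM in replicate 2 against 17.05 TPM in replicate 1. The truncated transcript, Ntrk2-202, took 49.28% in replicate 2 and 49.03% in replicate 1, at 17.00 TPM in replicate 2 against 16.40 TPM in replicate 1. The full-length share averaged 50.8 ± 0.177% (SD, n = 2), and full-length over truncated TPM was 1.03-fold in replicate 2 and 1.04-fold in replicate 1.

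The split rested on long stretches that belong to one form. In the M21 models 7007 of 8744 exonic bases of Ntrk2-201 and 5109 of 6846 of Ntrk2-202 lie in no other listed transcript of the gene. The posterior SD of the count was 31.5 reads beside 2117 for Ntrk2-201 in replicate 2, and 39.4 beside 3254 in replicate 1. The leading transcript's share moved by 0.25 percentage points between the libraries, against a median of 3.72 points over the 9006 genes with 2 or more transcripts and at least 100 counts in both libraries. Ntrk2, with 3798 counts in replicate 2 and 5814 in replicate 1, lay far above that minimum, and genes of like depth were not compared. For Ntrk3 the leading transcript's share moved by 4.26 points. Truncated TrkB is known as the main form of mature astrocytes in the adult brain. Of 3 mature astrocyte markers, Gfap had 0.08 TPM in replicate 2 and 0.17 TPM in replicate 1, Aqp4 had 0.87 and 1.19 TPM in the same order, and Aldh1l1, which radial glia also express, had 28.60 and 28.84 TPM. Their part in the Ntrk2 shares was not tested.

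Ntrk3, the TrkC gene (ENSMUSG00000059146.8, chr7:78175959-78738012, − strand), lay below Ntrk2. It had 15.50 TPM from 544 counts in replicate 2 and 16.50 TPM from 912 counts in replicate 1 (mean 16.0 ± 0.707). Ntrk2 over Ntrk3 was 2.23-fold in replicate 2 and 2.03-fold in replicate 1 by TPM (mean 2.13 ± 0.140). Most Ntrk3 signal was assigned to kinase-coding transcripts. Full-length transcripts together took 77% of the gene's TPM in replicate 2 and 73% in replicate 1 (mean 75 ± 2.76%, SD, n = 2). The coding truncated transcript, Ntrk3-202, took 7.70% in replicate 2 and 14.32% in replicate 1 (mean 11.0 ± 4.68%), from 38.3 counts in replicate 2 and 120 in replicate 1. Full-length over truncated TPM was thus 9.99-fold in replicate 2 and 5.10-fold in replicate 1. The posterior SD of the truncated count was 15.7 reads in replicate 2 and 19.8 in replicate 1. The Ntrk3-202 model is 2337 bases long in the deposited tables and 3977 in M21. Reads from bases missing in the deposited model could not be assigned to Ntrk3-202. In M21, 1633 of its 3977 exonic bases lie in no other listed transcript of the gene. A full-length model is also shorter in the deposited tables, as given below. How far the model lengths moved these shares was not tested. The full-length share of Ntrk3 exceeded that of Ntrk2 in both libraries. With 2 libraries no test of that difference was run, and the part of the model lengths in it was not tested either.

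A noncoding transcript, Ntrk3-203, which shares exons with the truncated end, took a further 14.72% in replicate 2 and 12.29% in replicate 1. Its share rested on 25.1 counts in replicate 2 and 35.3 in replicate 1, over a model of 868 bases. The deposited TPM interval of Ntrk3-203 ran from 0.799 to 3.54 in replicate 2 and from 0.794 to 3.07 in replicate 1. Counted with Ntrk3-202, a grouping added after the values were seen, Ntrk3-203 brought the truncated share to 22.4% in replicate 2 and 26.6% in replicate 1. The retained-intron transcript Ntrk3-204 stayed at 0.62% in replicate 2 and 0.35% in replicate 1.

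TrkC can carry an insert in its kinase domain, and in other cell systems such inserts are known to weaken its signalling. The insert bases are shown because the deposited shares gave them most of the full-length signal. Capitals mark the insert and lower case the 30 coding bases on each side, read on the − strand of GRCm38 from GENCODE M21. The short insert is 1 exon at chr7:78204103-78204144, and the long insert adds a 75-base exon at chr7:78229487-78229561 before it. Both begin at coding base 2134, counted from 1 at the start codon.
Ntrk3 short insert: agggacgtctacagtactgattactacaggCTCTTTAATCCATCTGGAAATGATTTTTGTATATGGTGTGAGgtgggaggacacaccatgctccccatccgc
Ntrk3 long insert: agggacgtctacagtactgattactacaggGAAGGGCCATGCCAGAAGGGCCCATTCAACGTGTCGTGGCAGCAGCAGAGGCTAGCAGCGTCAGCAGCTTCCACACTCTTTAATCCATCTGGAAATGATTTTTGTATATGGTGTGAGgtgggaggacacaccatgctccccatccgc
Ntrk3-205, with the short insert, took 32.52% of the gene's TPM in replicate 2 and 36.78% in replicate 1. Ntrk3-206, with the long insert, took 21.89% in replicate 2 and 17.16% in replicate 1, and Ntrk3-201, with none, took 22.54% in replicate 2 and 19.11% in replicate 1. Transcripts with an insert together took 54.4% in replicate 2 and 53.9% in replicate 1 (mean 54.2 ± 0.332%).

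The division among the insert forms was uncertain. No exonic base of Ntrk3-205 lies outside the other listed Ntrk3 transcripts, and 75 bases of Ntrk3-206 do. The posterior SD of the Ntrk3-205 count was 54.5 reads beside 186 in replicate 2 and 82.4 beside 354 in replicate 1. For Ntrk3-206 it was 58.1 beside 130 in replicate 2 and 84.3 beside 171 in replicate 1, and its deposited TPM interval in replicate 1 reached down to 4.84e-05. The models differ as well: Ntrk3-201 is 3300 bases long in the deposited tables and 19703 in M21, so reads from the added bases had no Ntrk3-201 model to go to. How much of each share came from this was not tested.

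**Figure D3:**
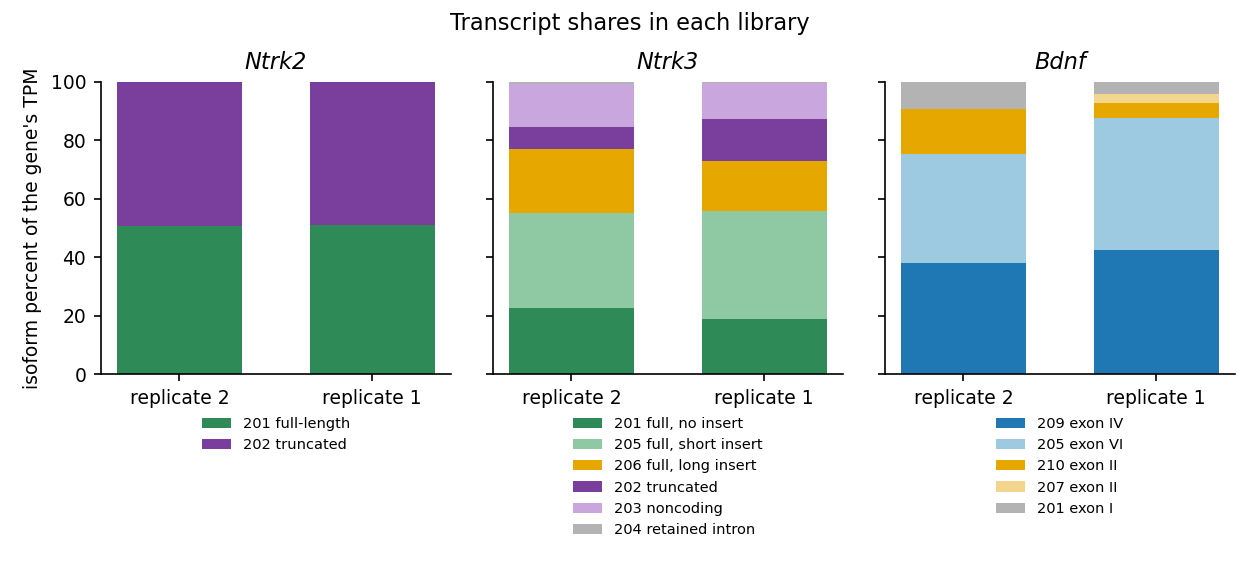
Share of each gene's TPM, in percent, taken by its transcripts in replicate 2 and replicate 1, for Ntrk2, Ntrk3 and Bdnf, with Bdnf transcripts of 0 in both libraries left out. Ntrk2 divides evenly between its full-length (50.72% and 50.97%) and truncated transcripts, Ntrk3 is mostly full-length, and Bdnf is mostly transcripts with first exon IV or VI.

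Sort1, the sortilin gene (ENSMUSG00000068747.10, chr3:108284082-108361511, + strand), stood beside Ntrk3. It had 18.73 TPM from 1443 counts in replicate 2 and 16.87 TPM from 2171 counts in replicate 1 (mean 17.8 ± 1.32). Sort1 over Ngfr, the partners in binding pro-forms, was 0.253-fold by TPM in replicate 2 and 0.186-fold in replicate 1. Sort1-201 took 75.43% of its TPM in replicate 2 and 81.07% in replicate 1. Sort1-203, which in M21 holds a 99-base coding exon that Sort1-201 skips, took 17.08% in replicate 2 and 14.92% in replicate 1. The retained-intron transcript Sort1-202 took 7.49% in replicate 2 and 4.01% in replicate 1. These shares rested on 70.2 counts in replicate 2 and 87.1 in replicate 1 for Sort1-203. For Sort1-202 they rested on 16.6 counts in replicate 2 and 12.6 in replicate 1. The Sort1-203 model is 1629 bases long in the deposited tables and 6836 in M21, and the Sort1-202 model 925 and 5193. In M21 Sort1-203 has 2574 coding bases, more than its whole deposited model. Whether the model that gave the Sort1-203 share holds the 99-base exon was not tested. In M21 the first exon of Sort1-202 spans the 99-base exon of Sort1-203. The antisense gene Gm12523 overlaps Sort1 by up to 338 exonic bases, and since the handling of strand is not given in the sources used here, reads of the overlapping genes could not be told apart. Gm12523 itself had 1.29 counts in replicate 2 and 4.89 in replicate 1.

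Among the ligands Ntf3, which encodes neurotrophin-3, was the highest (ENSMUSG00000049107.9, chr6:126101412-126166910, − strand). It had 6.92 TPM from 129 counts in replicate 2 and 5.95 TPM from 173 counts in replicate 1 (mean 6.44 ± 0.686). Ntf3 exceeded Bdnf by 2.81-fold in replicate 2 and 2.55-fold in replicate 1 by TPM. Its receptor gene Ntrk3 exceeded it by 2.24-fold in replicate 2 and 2.77-fold in replicate 1. The transcript Ntf3-202, with 3 exons, took 75.70% in replicate 2 and 62.28% in replicate 1, and Ntf3-201, with 2 exons, took 24.30% in replicate 2 and 37.72% in replicate 1. These shares had a posterior SD of 15.9 reads beside 99.7 for Ntf3-202 in replicate 2 and 21.2 beside 111 in replicate 1.

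Bdnf, the gene of the main TrkB ligand (ENSMUSG00000048482.10, chr2:109674700-109727007, + strand), was low but detected. It had 2.46 TPM from 138 counts in replicate 2 and 2.33 TPM from 205 counts in replicate 1 (mean 2.40 ± 0.0919). Its receptor gene Ntrk2 exceeded it by 14.0-fold in replicate 2 and 14.4-fold in replicate 1 (mean 14.2 ± 0.238). The antisense gene Gm45346 of M21 overlaps Bdnf by up to 497 exonic bases and had no line of its own in the deposited tables.

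Bdnf has many promoters, each with its own first exon joined to a common coding exon, and the first exons are given here in the usual Roman numbering by their position. Transcripts with first exon IV or VI, Bdnf-209 and Bdnf-205, took 75.3% of the gene's TPM in replicate 2 and 87.5% in replicate 1. By the posterior mean the same transcripts took 50.6% in replicate 2 and 66.3% in replicate 1, since that estimate spreads reads over transcripts listed at 0. Transcripts with first exon II took 15.5% in replicate 2 and 8.22% in replicate 1. The Bdnf-209 count was 51.6 in replicate 2 and 86.9 in replicate 1.

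The promoter before exon IV is shown because Bdnf-209 was among the leading transcripts, and because this promoter is known in cortical neurons for a calcium-response element bound by CREB. The sequence is the 250 bases upstream of the start site, chr2:109692186-109692435 (+, GRCm38.p6, RefSeq), with capitals on TCACGTCA, which begins 38 bases before the start site.
Bdnf exon IV promoter: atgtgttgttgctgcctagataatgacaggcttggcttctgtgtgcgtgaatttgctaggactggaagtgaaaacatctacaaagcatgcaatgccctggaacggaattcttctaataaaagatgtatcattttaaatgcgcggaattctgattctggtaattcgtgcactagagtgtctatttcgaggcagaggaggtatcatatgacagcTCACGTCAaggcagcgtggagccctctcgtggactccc
The letters TCACGTCA were searched on both strands and were present in 1 of 7 Bdnf promoter windows and in 115 of 32851 windows of the same length (0.350%). A match describes letters only.

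Ntf5, the neurotrophin-4 gene (ENSMUSG00000074121.2, chr7:45413695-45417179, + strand), was close to 0. It had 0.07 TPM from 2 counts in replicate 2 and 0.02 TPM from 1 count in replicate 1. The exact Poisson 95% interval ran from 0.00907 to 0.271 TPM in replicate 2, and in replicate 1 from 0.000601 to 0.132 TPM. Such intervals cover counting error only. At this depth the 2 libraries could not be told apart for Ntf5, and its level was below that of Bdnf in both.

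Between the libraries, Ngfr alone of the 6 members tested differed beyond counting noise, and by less than 2-fold. The test was an exact binomial test, two-sided, of rounded expected counts against library shares scaled by trimmed means (TMM), with Benjamini-Hochberg adjustment over 17428 genes. It compares these 2 libraries, not conditions. None of the 6 passed an adjusted p under 0.05 with a change of 2-fold, beside 2.15% of all genes tested (1.38% higher and 0.763% lower in replicate 2), and 1 of 6 passed that p at any size, beside 24.2% of all genes. Ngfr was lower in replicate 2 by a log2 ratio of -0.35 ± 0.03 (counting SE), 0.783-fold, with an adjusted p of 1.46e-30 by the exact binomial test. A ratio at least as large occurred in 3326 of the 17428 genes, or 19.1%, a share that pools genes of every level. Among the 873 tested genes nearest its level, with a median of 74.750 TPM, the 5th percentile of the log2 ratio was -0.250. Ngfr thus lay below that percentile. At that p and any size, 11.6% of all genes tested were lower and 12.5% higher in replicate 2.

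The other log2 ratios, replicate 2 over replicate 1, were -0.02 ± 0.03 for Ntrk2, 0.01 ± 0.05 for Sort1, 0.03 ± 0.16 for Bdnf, -0.15 ± 0.08 for Ntrk3 and 0.18 ± 0.17 for Ntf3 (counting SE). Their adjusted p-values by the exact binomial test lay between 0.174 for Ntrk3 and 0.980 for Bdnf, which does not show equal levels for the genes of lowest count. Over all genes tested the median size of the log2 ratio was 0.14. Ntf5 was not tested, since its mean count was under 10.

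Markers of several cell types and tissues also differed between the libraries, in both directions. At an adjusted p under 0.05 of the exact binomial test, 11.6% of all genes tested were lower and 12.5% higher in replicate 2. At that p, 1.38% of all genes tested were higher in replicate 2 by 2-fold or more. These shares pool genes of every level. The summed level of the 10 sensory ganglia markers was 494 TPM in replicate 2 against 569 TPM in replicate 1, with 4 lower and 1 higher in replicate 2 at an adjusted p under 0.05. The lower ones included Prph, a neuronal filament gene, at 198.18 TPM in replicate 2 against 268.13 TPM in replicate 1. Whether the Prph reads came from ganglia or from neurons of the neural tube was not measured. Avil, a sensory neuron gene, was lower too, at 17.51 TPM in replicate 2 against 27.00 TPM in replicate 1. The factor gene Pou4f1, also known from dorsal spinal neurons, did not follow Prph and Avil. It had 120.55 TPM in replicate 2 against 115.10 TPM in replicate 1. That of the 6 Schwann and satellite glia markers was 68.4 TPM in replicate 2 against 76.5 TPM in replicate 1, with 3 lower and 0 higher in replicate 2. That of the 5 skeletal muscle markers was 200 TPM in replicate 2 against 120 TPM in replicate 1, and 4 of the 5 were higher by 2-fold or more. That of the 4 epidermis markers was 13.8 TPM in replicate 2 against 3.85 TPM in replicate 1, and 4 of the 4 were higher by 2-fold or more. Lists of cells within the tissue moved as well. Of 5 neuron markers, 4 were lower and 1 higher in replicate 2, with a log2 ratio of -0.14 ± 0.01 for Tubb3, and their summed level was 2640 TPM in replicate 2 against 2763 TPM in replicate 1. Of 5 motor neuron markers, 1 was lower and 1 higher, with -0.26 ± 0.03 for Isl1, which sensory neurons also express, and the sum was 141 TPM in replicate 2 against 161 TPM in replicate 1. Of 5 progenitor markers 1 was lower and 0 higher, of 6 mesenchyme and meninges markers 2 were lower and 1 higher, and of 3 endothelium markers 1 was lower and 1 higher. No marker in these lists was at 0. Their part in the Ngfr difference was not tested.

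**Figure D4:**
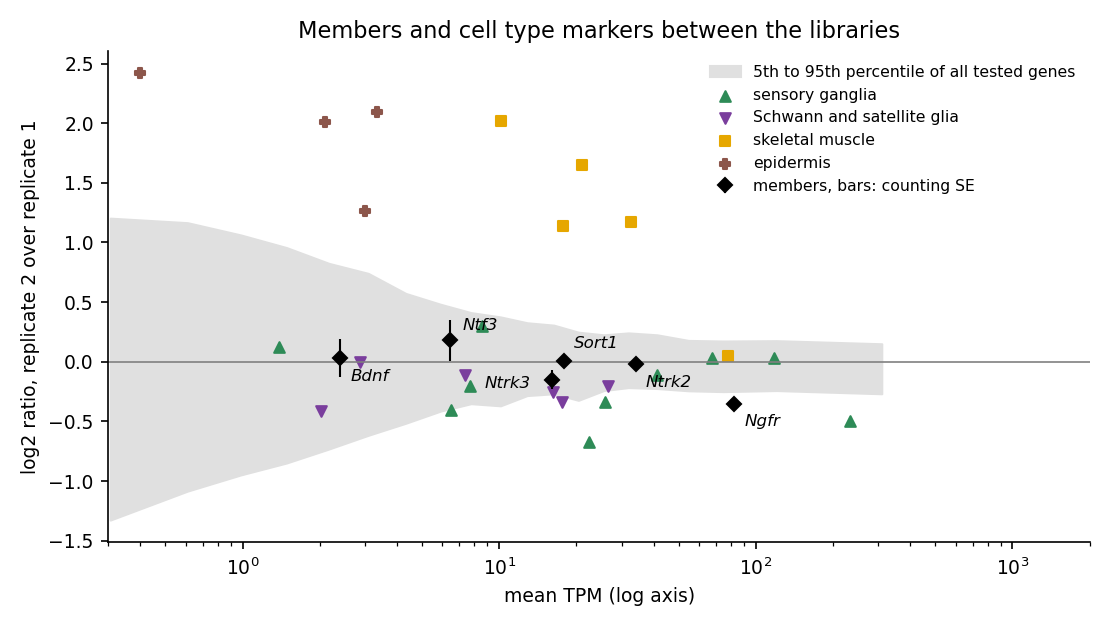
Log2 ratio of replicate 2 over replicate 1 against mean TPM (log axis) for the 6 members tested, with counting SE as bars, and for the markers of 4 other tissues, over a grey band from the 5th to the 95th percentile of all tested genes at that level. Ngfr, at -0.35, lies below the band together with the sensory ganglia markers Prph and Avil, and 4 of 5 muscle and 4 of 4 epidermis markers lie above it.

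The machinery around these receptors was largely present. Of 79 genes in 6 lists of proteins that process, bind, transduce or respond to neurotrophin signals, 72 (91.1%) reached 1 TPM in both libraries, beside 61.8% of protein-coding genes. The lists were chosen with earlier results of these data known, so that excess cannot be separated from the choice of genes. Of the 75 tested between the libraries, 0 passed with a 2-fold change, and 8 were higher and 16 lower in replicate 2 at an adjusted p under 0.05 of the exact binomial test. These are 10.7% and 21.3% of those tested, beside 12.5% higher and 11.6% lower of all genes, and 2.15% of all genes passed with a 2-fold change.

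Among adaptors and effectors recruited by active Trk kinases, detection was complete, 22 of 22, and the median was 13.2 TPM. Highest were Grb2, an adaptor to the Ras pathway, at 139 ± 2.45 TPM, Crk, an adaptor to Rap1 signalling, at 95.5 ± 7.72 TPM, and Kidins220, a membrane scaffold of Trk receptors, at 67.3 ± 2.27 TPM (SD, n = 2 here and for the lists that follow). The lowest was the adaptor gene Shc3 at 1.69 ± 0.290 TPM. In replicate 2, 2 of the 22 were higher and 6 lower at the adjusted p. The shares over all genes tested were 12.5% higher and 11.6% lower, for this list and those that follow.

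Partners and cleavage enzymes of the p75 receptor had the highest median of the lists, 32.7 TPM, with 14 of 14 detected. Maged1, a MAGE protein that binds p75, had 778 ± 27.9 TPM, Bex3, also known as a p75 binding protein, 545 ± 21.3 TPM, and Arhgdia, whose protein is known to bind p75, 406 ± 3.58 TPM. The lowest was the kinase gene Ripk2 at 3.21 ± 0.191 TPM. All 3 leading partners thus stood above Ngfr itself, at 82.2 TPM. In replicate 2, 1 of the 14 genes was higher and 3 lower at the adjusted p.

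The 4 relatives of sortilin lay within a narrow range and below Sort1 in both libraries. Sorl1 had 9.55 ± 0.205 TPM, Sorcs3 8.66 ± 0.785 TPM, Sorcs2, which can also pair with p75, 8.41 ± 0.262 TPM and Sorcs1 8.35 ± 0.240 TPM. Sort1 at 17.8 TPM compared with a median of 8.54 TPM for these genes. Of the 4 relatives, 0 were higher and 1 lower in replicate 2 at the adjusted p.

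Of 16 genes for processing or release of the pro-forms, 11 passed the limit of detection and the median was 4.63 TPM. Highest were Cpe, a carboxypeptidase also known in sorting of pro-BDNF, at 465 ± 2.52 TPM, Serpini1, a neuronal inhibitor of tissue plasminogen activator, at 101 ± 7.65 TPM, and Plat, that activator, at 64.1 ± 2.06 TPM. The metalloprotease genes Mmp3 and Mmp7 had no read in either library (0 counts). With 3 counts as the limit that such a zero allows, Mmp3 could have reached 0.123 TPM in replicate 2 against 0.0781 TPM in replicate 1, and Mmp7 0.216 TPM in replicate 2 against 0.137 TPM in replicate 1. Of the 12 tested, 4 were lower in replicate 2 and 0 higher at the adjusted p.

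The 11 genes of Trk trafficking and turnover all passed that limit and had a median of 23.5 TPM. Rab7, the GTPase of late endosomes, had 244 ± 2.80 TPM, Ptprs, a receptor phosphatase, 143 ± 3.44 TPM, and Gipc1, an adaptor between Trk receptors and myosin, 112 ± 2.65 TPM. The lowest was the membrane protein gene Lrig1 at 7.21 ± 0.502 TPM. Of these 11 genes, 3 were higher and 1 lower in replicate 2 at the adjusted p. Of 12 genes that respond to neurotrophins or carry their transcriptional signal, 10 passed the limit of detection and the median was 8.13 TPM. Spry2, a feedback inhibitor of receptor kinases, had 29.4 ± 2.09 TPM, Creb1, the CREB factor gene, 26.5 ± 4.15 TPM, and Etv1, an ETS factor gene of proprioceptive sensory neurons, 22.2 ± 2.24 TPM. Arc, an activity-induced gene, was lowest at 0.950 ± 0.156 TPM. Of these 12 genes, 2 were higher and 1 lower in replicate 2 at the adjusted p.

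**Figure D5:**
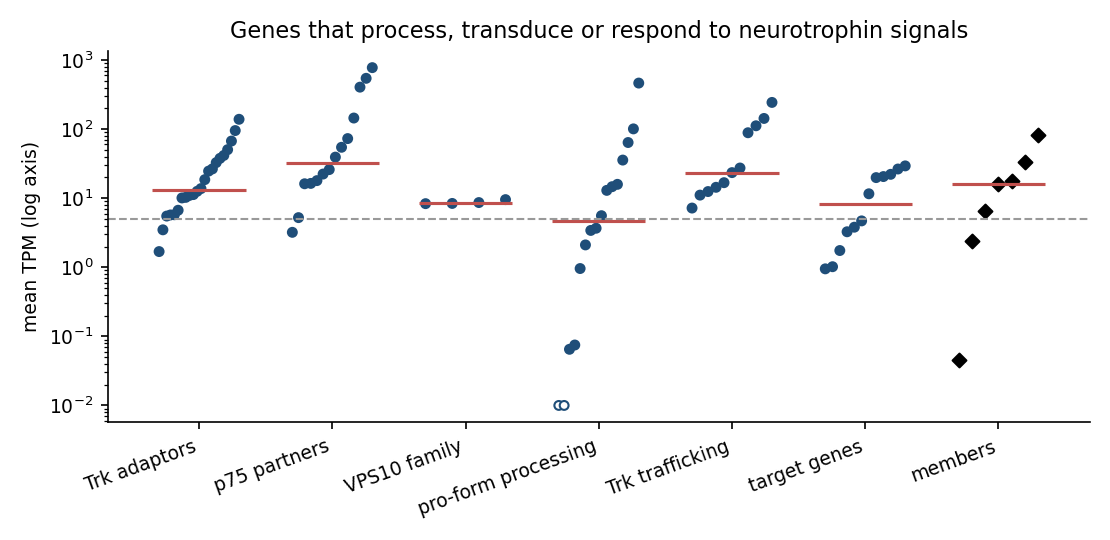
Mean TPM over both libraries (log axis) of each gene in the 6 lists and of the 7 members, drawn as diamonds, with a red line at each list's median and a dashed line at the median protein-coding gene, 4.96 TPM. Open circles at the bottom stand for Mmp3 and Mmp7, which had 0 counts, and the p75 partners have the highest median, 32.7 TPM.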

How the data were processed

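Total RNA-seq of 1 group was analysed, 2 libraries that the labels number as biological replicates 2 and 1. The labels name a single donor record for both, and nothing in them says whether the libraries came from separate litters. P-values measure only the difference between these libraries beside counting noise. The deposited tables of genes and transcripts use mm10 and annotation M4, per the accompanying notes. The aligner was not given in the sources used here, nor were the quantifier and the handling of strand.

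Per the file headers, the authors deposited expected counts (estimated reads, not whole numbers), posterior mean counts, TPM and FPKM. Effective length in the deposited tables is the length minus 99 bases. The posterior standard deviation, a score in reads, the TPM interval bounds, a signal whose level is not stated and which surrounds the posterior mean, and the isoform percent of each gene's TPM were also deposited. Spike-ins were left out of library sizes here but are part of the authors' TPM.

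Expected counts were rounded. Genes whose mean count was at least 10 entered a two-sided exact binomial test against library shares from TMM in edgeR 4.0.16 (R 4.3.3), since a quasi-likelihood test has no contrast within 1 group. DESeq2 1.42.0 gave alternative size factors. The common biological coefficient of variation was 9.24% over 17428 genes. The test was tried on simulated counts. The outcome of that trial is not reported here, so nothing is drawn from it. Log2 ratios between members were taken of TPM without a pseudocount. Tests and figures were made with SciPy 1.17.1, matplotlib 3.10.9 and pandas 2.3.3 under Python 3.11.15.

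Gene symbols, coordinates and transcript structures came from GENCODE M21 (GRCm38), and 42462 of 43346 gene identifiers had a name. Full-length transcripts are coding transcripts that reach the stop codon of the gene's longest coding sequence, and truncated ones keep its start codon and stop earlier. The members and lists were chosen with earlier results of these data known. From each list the 3 highest genes, the lowest and any called with a 2-fold change are named. Markers named beside Ngfr were picked after their values were seen. Likeness of pattern cannot be measured over 2 samples of 1 group. Other genes of the neurotrophin and Trk families are not reported here.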

Additional observations from a re-analysis of the deposited data

How the results depend on the processing

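Of 108 values recomputed from both libraries under alternatives, 87 kept their direction and stayed within the limits set for them, 21 moved and 0 reversed. The order of the 7 genes was the same under FPKM, TPM over mouse genes only, posterior-mean TPM and either library alone. Of 21 such alternative member levels, 7 were within 1 SD and 14 were not. Of the 14, 12 were under FPKM or TPM over mouse genes only, which rescale every gene, with Ngfr at 53.7 as FPKM and 94.4 as TPM over mouse genes only, and 2 were by the posterior mean. The log2 ratio of Ntrk2 over Bdnf, 3.83, became 3.72 by posterior-mean TPM, 3.77 with a pseudocount of 0.1 TPM and 3.36 with a pseudocount of 1 TPM. That of Ntf3 over Bdnf, 1.42, became 1.13 with a pseudocount of 1 TPM. A pseudocount shrinks ratios of low genes by construction. The full-length share of Ntrk3, 75%, became 87.3% over coding transcripts only, which leaves out the noncoding ones, and its truncated share, 11.0%, became 24.5% with Ntrk3-203 counted, an alternative chosen after seeing the data. Genes passing between the libraries with a 2-fold change numbered 374, and 117 at a minimum mean count of 50, where fewer genes were tested. Ngfr was the single member past an adjusted p under 0.05 under every normalization and filter tried.

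The 36 values from either library alone are given as ranges and say nothing of stability, since with 2 libraries each lies within 1 SD of the mean by construction. The log2 ratios ran from 1.10 to 1.44 for Ngfr over Ntrk2, 2.25 to 2.46 for Ngfr over Ntrk3, 1.02 to 1.15 for Ntrk2 over Ntrk3, 3.81 to 3.84 for Ntrk2 over Bdnf, 1.16 to 1.47 for Ntrk3 over Ntf3, 1.35 to 1.49 for Ntf3 over Bdnf and -2.42 to -1.98 for Sort1 over Ngfr. Shares ran from 50.7% to 51.0% for full-length and 49.0% to 49.3% for truncated Ntrk2, and from 73% to 77% for full-length and 7.70% to 14.3% for truncated Ntrk3. The truncated share of Ntrk3 moved by over 1.5 times between the libraries. No library could be left out of the comparison of the libraries. No paired analysis was possible because the samples form 1 group.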
